A study of Mus musculus with 3 samples.

Results

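The genes of MHC class II antigen presentation were examined in a ChIP-Seq series on Ser5-phosphorylated RNA polymerase II (Pol_II) in mouse macrophages. The group holds 7 genes, chosen by symbol from the 22208 protein-coding genes of GENCODE M1 on chromosomes 1 to 19 and X: H2-Aa, H2-Ab1, H2-Eb1, H2-DMa, H2-DMb1, Cd74 and Ciita. The cells were bone marrow-derived macrophages (BMDM) of female Fvb mice on day 7 of differentiation in L929-conditioned medium. The series has 3 libraries, 1 of each kind: Ser5 from cells left untreated, Ser5 from cells exposed for 2 h to 10 ng/ml lipopolysaccharide (LPS), and input DNA of untreated cells. An input after LPS was not analysed here. With 1 library each, no spread between replicates can be given and no test was made, so every interval below is a 95% interval for counting error alone.

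MHC class II molecules are pairs of an alpha and a beta chain that carry peptides from engulfed proteins to the cell surface, where CD4+ T cells read them. Cd74 encodes the invariant chain, which escorts the new pairs and blocks their groove, and H2-DMa and H2-DMb1 encode the chains of the exchanger that loads the peptide. Ciita encodes the coactivator on which the promoters of these genes depend, and macrophages are known to switch it on strongly in response to interferon gamma. Ser5 of the Pol_II C-terminal domain is phosphorylated at initiation, so the mark is usually highest just after the transcription start site (TSS).

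The chain genes were analysed on chromosome 17 of mm9, in the class II region of the H2 complex. H2-DMa lies at chr17:34272127-34276046 on the plus strand and H2-DMb1 at chr17:34290017-34297168 on the plus strand. H2-Ab1 follows at chr17:34400154-34406363 on the plus strand, H2-Aa at chr17:34406276-34424772 on the minus strand and H2-Eb1 at chr17:34442828-34453144 on the plus strand. The annotated H2-Aa gene is 18497 bp long because 1 of its transcripts runs on to the end of H2-Ab1, whereas transcript H2-Aa-001 spans 5084 bp. Fvb mice carry another H2 haplotype than the reference genome, and tags were kept with at most 2 mismatches, so the input library is given beside each value as a guide to where tags could be placed.

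The promoters of the classical chain genes carry the motifs through which the class II factors are known to bind, and they are shown because the TSS windows described below contain them. The Y box, CTGATTGG, is the binding site of NF-Y, ACNGATG is the end of the X1 box bound by the RFX complex, and TGACGTCA is the palindromic form of the X2 box bound by CREB. Each stretch is the 120 bases before the annotated TSS in mm9, 5′ to 3′ on the strand of the gene, with the matched letters in capitals.
H2-Ab1, chr17:34400034-34400153, plus strand: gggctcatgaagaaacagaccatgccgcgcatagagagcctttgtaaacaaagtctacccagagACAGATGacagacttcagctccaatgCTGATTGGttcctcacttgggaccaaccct
H2-Eb1, chr17:34442708-34442827, plus strand: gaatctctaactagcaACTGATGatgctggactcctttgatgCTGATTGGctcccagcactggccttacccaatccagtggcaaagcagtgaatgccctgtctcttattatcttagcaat
H2-Aa, chr17:34424773-34424892, minus strand: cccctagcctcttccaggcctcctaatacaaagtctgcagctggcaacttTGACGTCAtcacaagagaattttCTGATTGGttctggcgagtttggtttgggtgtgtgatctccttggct

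The 3 promoters share the Y box, which starts 30 bases before the TSS in H2-Ab1, 47 bases before it in H2-Aa and 78 bases before it in H2-Eb1. In the 250 bases before the TSS of all 22208 genes, read on both strands, CTGATTGG was found in 4.32% of promoters, ACNGATG in 7.83% and TGACGTCA in 1.91%. In both H2-Ab1 and H2-Eb1 the Y box began 26 bases after the start of ACNGATG. On the strand of the gene, ACNGATG was followed by CTGATTGG within 40 bases in 4 of the 22208 promoters, those of H2-Ab1, H2-Eb1, H2-Eb2 and G3bp2, with the same 26 bases in the 3 class II genes and 8 bases in G3bp2. None of these 3 motifs was found in the 250 bases before the TSS of H2-DMa or H2-DMb1, and matches in the Cd74 promoter are not reported here. A match is a description of the letters and not a measured site.

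Tags were counted by their 5′ end over the annotated gene body and within 1 kb on each side of the annotated TSS. Levels are in TPM, tags per 1000000 of the library, from totals of 7616771 tags of untreated Ser5, 6249819 of Ser5 after LPS and 7533308 of input on these chromosomes, divided by the length in kb where densities are compared. In the LPS library Ccl5, a chemokine gene induced by LPS, held 7803 tags against 24 in untreated cells, which checks the label. The 8 macrophage markers, among them Csf1r, Cd68 and Lyz2, all had a peak at the TSS in both lists. None of the 7 B cell and 5 T cell markers had one, and of the 6 dendritic cell markers only Batf3 did, in untreated cells. Of the 5 neutrophil markers S100a8 had a TSS peak only in untreated cells and Camp only after LPS. Camp, which encodes a granule peptide, held 21 tags within 1 kb of its TSS in untreated Ser5, 58 after LPS and 24 in the input, a ratio of LPS to untreated of 3.37. The gene bodies of the T cell markers Cd3d and Lck held more Ser5 than input tags, 136, 76 and 35 for Cd3d and 312, 281 and 99 for Lck.

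The class II genes held few Ser5 tags, and only part of them stood above the input. Over the gene body, untreated cells gave 133 tags for Cd74, 100 for H2-Eb1, 99 for Ciita, 55 for H2-DMa, 27 for H2-Aa, 24 for H2-DMb1 and 14 for H2-Ab1. After LPS the same genes held 127, 80, 100, 28, 43, 9 and 20 tags, and in the input 82, 57, 199, 29, 50, 14 and 25. The longest gene, Ciita, had fewer tags in either Ser5 library than in the input, and so did H2-Aa and H2-Ab1, before the libraries were scaled.

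**Figure D1:**
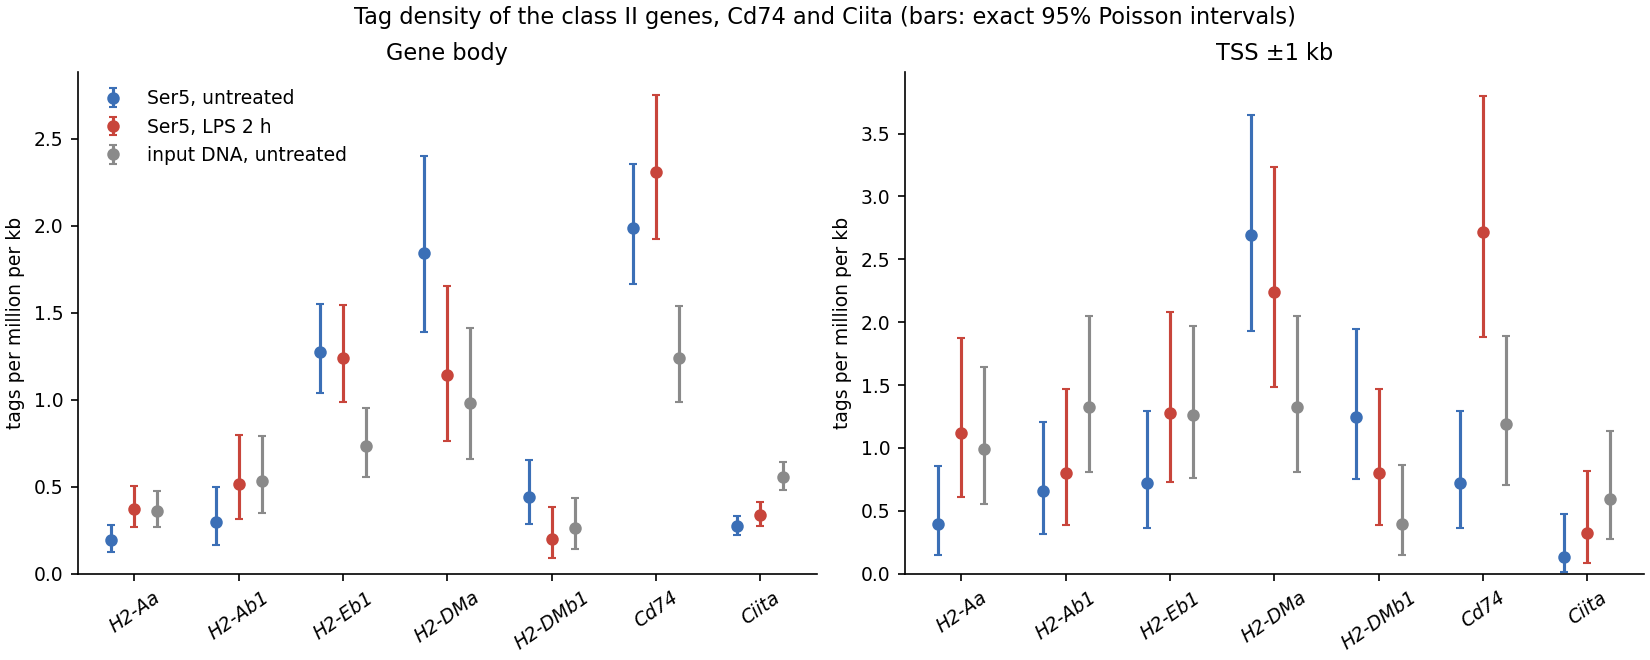
Tag density in TPM per kb over the gene body (left) and within 1 kb of the TSS (right) for the 7 genes in untreated Ser5, Ser5 after LPS and input DNA, with exact Poisson intervals. Cd74 after LPS stands highest over the gene body at 2.31, and at the TSS the density of Cd74 is 0.722 in untreated cells and 2.72 after LPS.

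Per length, the untreated Ser5 density was highest in Cd74, at 1.98 TPM per kb (1.66 to 2.35), and in H2-DMa, at 1.84 (1.39 to 2.40), and these intervals overlap. H2-Eb1 followed at 1.27 (1.03 to 1.55), then H2-DMb1 at 0.441 (0.282 to 0.655), H2-Ab1 at 0.296 (0.162 to 0.497), Ciita at 0.274 (0.223 to 0.334) and H2-Aa at 0.192 (0.126 to 0.279). The first 3 genes stand apart from the last 4, and among those 4 each neighbour in the order overlaps the next. The median of all protein-coding genes was 0.420 TPM per kb. Above it lay Cd74, with a density over that of 78.4% of genes, H2-DMa (76.8%), H2-Eb1 (69.0%) and, just above, H2-DMb1 (50.6%). H2-Ab1 (45.8%), Ciita (44.7%) and H2-Aa (39.7%) lay below it.

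After LPS the densities were 2.31 TPM per kb for Cd74 (1.93 to 2.75), 1.24 for H2-Eb1 (0.984 to 1.54) and 1.14 for H2-DMa (0.759 to 1.65). H2-Ab1 had 0.515 (0.315 to 0.796), H2-Aa 0.372 (0.269 to 0.501), Ciita 0.337 (0.275 to 0.410) and H2-DMb1 0.201 (0.0921 to 0.382). Cd74 was highest in both conditions and its interval after LPS did not overlap that of any other of these genes.

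Whether a gene stood above the input depended on how the libraries were scaled. In untreated Ser5 49.9% of tags fell outside the peaks of both lists, after LPS 46.3% did and in the input 95.4%, so scaling to tags outside peaks multiplied each ratio of untreated Ser5 to input by 1.91 and each ratio of LPS to input by 2.06. For Cd74 the gene body ratio of untreated Ser5 to input was 1.60 (1.21 to 2.14) when scaled to all tags and 3.07 (2.31 to 4.09) when scaled to tags outside peaks. H2-Eb1 had 1.74 (1.24 to 2.45) and 3.32 (2.37 to 4.68), H2-DMa 1.88 (1.18 to 3.05) and 3.59 (2.25 to 5.84), and H2-DMb1 1.70 (0.842 to 3.55) and 3.24 (1.61 to 6.78). For these 4 genes the untreated value lay above the input under both scalings, and the interval did so under both for Cd74, H2-Eb1 and H2-DMa. For H2-Eb1 this rested on 1 peak inside the gene, described below. Without that peak its untreated ratio to input was 0.568 (0.353 to 0.899) when scaled to all tags. Scaled to tags outside peaks it was 1.09 (0.675 to 1.72).

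Ciita, H2-Aa and H2-Ab1 did not stand above the input in untreated cells. Scaled to tags outside peaks, the untreated ratio to input was 0.941 for Ciita (0.732 to 1.20), 1.02 for H2-Aa (0.615 to 1.66) and 1.06 for H2-Ab1 (0.509 to 2.12), and scaled to all tags it was 0.492, 0.534 and 0.554. After LPS the same scaling outside peaks gave 1.25 for Ciita (0.971 to 1.59), 2.14 for H2-Aa (1.39 to 3.28) and 1.99 for H2-Ab1 (1.05 to 3.72). Scaled to all tags the values after LPS were 0.606, 1.04 and 0.964. Of the other 4 genes after LPS, Cd74 at 1.87 and H2-Eb1 at 1.69 with all-tag scaling had intervals above the input under both scalings. H2-DMa had 1.16 (0.667 to 2.03) scaled to all tags and 2.40 (1.37 to 4.175) scaled to tags outside peaks. For H2-DMb1 these values were 0.775 (0.296 to 1.92) and 1.60 (0.609 to 3.96). Of the 7 genes none held at least 2 times the input over the gene body in untreated cells with all-tag scaling, where 37.6% of genes with at least 10 tags did, and 4 of 7 did with scaling outside peaks, where 55.1% did. After LPS the counts were 0 of 7, where 32.9% did, and 4 of 7, where 51.8% did.

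The same comparison with the input was made at the TSS. In untreated cells H2-DMa and H2-DMb1 held 2-fold or more over the input within 1 kb of the TSS, 2 of the 7 genes under either scaling, where 72.0% of genes did with all-tag scaling and 78.0% with scaling outside peaks. After LPS it was Cd74 and H2-DMb1 with all-tag scaling, 2 of 7 where 70.5% did, and 5 of 7 with scaling outside peaks, where 78.6% did, Ciita and H2-Ab1 being the exceptions. The deposited lists hold a peak at the TSS of 2 of the 7 genes in untreated cells, H2-DMa and H2-DMb1, where 48.1% of all genes had one. After LPS 3 of the 7 had one, H2-Aa, H2-DMa and Cd74, where 46.0% did. Over the gene body 5 of the 7 had a peak in untreated cells, where 53.4% of all genes did, and 4 after LPS, where 50.7% did. All of these counts come from only 7 genes and were not tested against the shares of all genes. After LPS the 5 of 7 with scaling outside peaks and the 3 of 7 with a TSS peak were near those shares.

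**Figure D2:**
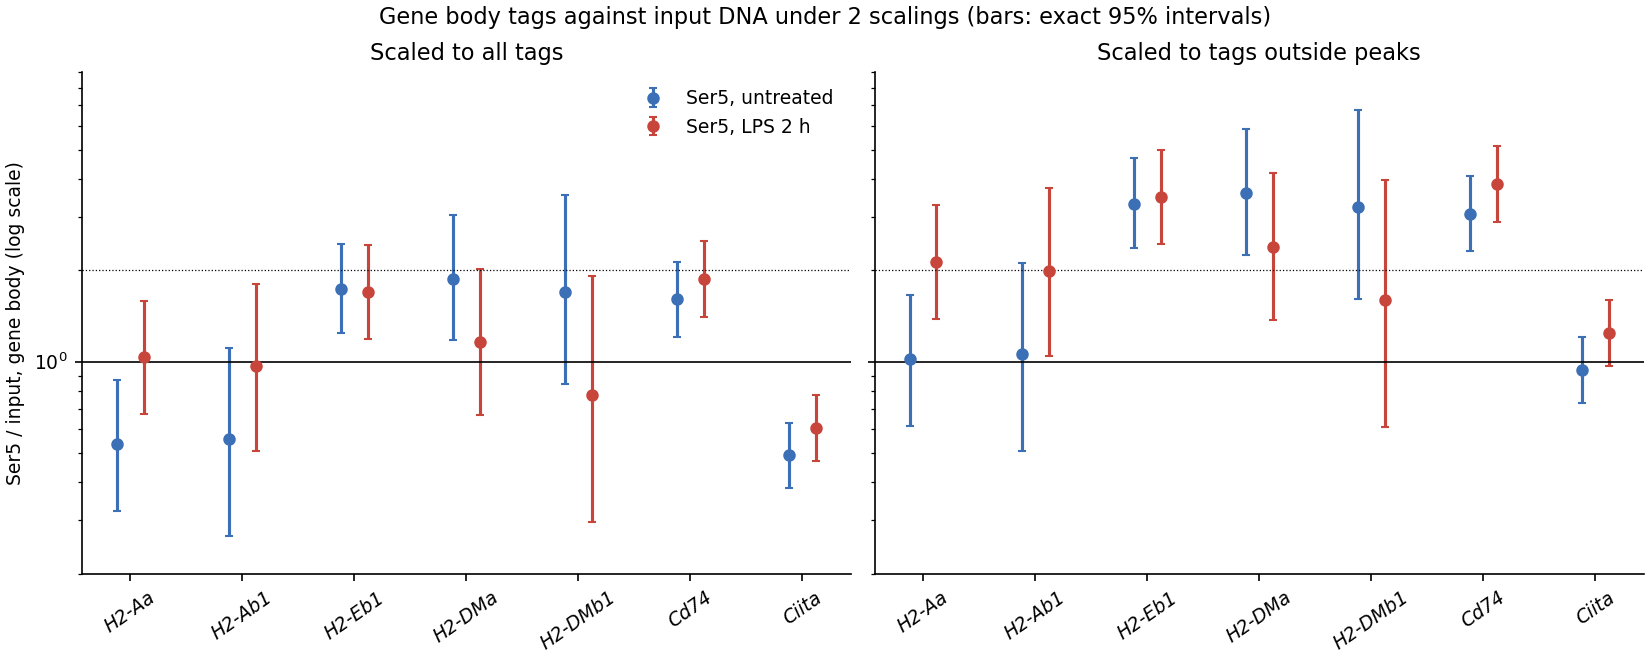
Ratio of gene body Ser5 to input for untreated cells and after LPS, on a log scale, with exact intervals, scaled to all tags (left) and to tags outside peaks (right). Cd74, H2-Eb1 and H2-DMa lie above 1 in both panels, while untreated Ciita lies at 0.492 on the left and at 0.941 on the right.

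The comparison of LPS with untreated cells asks how these genes responded to LPS within 2 h. Genes with 10 or more tags in the Ser5 libraries together were compared, and a difference of 2-fold or more in either direction was counted. None of the 7 gene bodies was higher by that much, where 5.83% of the 17289 genes compared were. H2-Aa, at 1.94, came nearest and passed 2-fold with 1 tag per position and strand (2.11), with scaling to tags outside peaks (2.09), per unique position (2.06) and over transcript H2-Aa-001 (4.11), the latter pair chosen after seeing the data. With the input subtracted both H2-Aa and H2-Ab1 passed it, at 48.6 and 15.4. Their untreated tags were only 1.02 and 1.06 times the input scaled to tags outside peaks. Almost nothing was left to divide by, so these 2 ratios say little about the size of a difference. H2-DMb1 was the 1 gene body at least 2 times lower, where 11.2% of genes were. A change in the number of cells with Pol_II at a gene and a change in the amount per cell cannot be told apart in these bulk samples. The median ratio of LPS to untreated over the 7 gene bodies was 1.16, against a median of 0.874 over all genes compared. At the TSS, 6 of the 7 genes held enough tags, since Ciita had only 6. H2-Aa and Cd74 were at least 2 times higher there, where 5.60% of 12458 genes were, and none was at least 2 times lower, where 14.1% were. The median ratio at the TSS was 1.50 over these 6 genes and 0.831 over all genes compared.

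**Figure D3:**
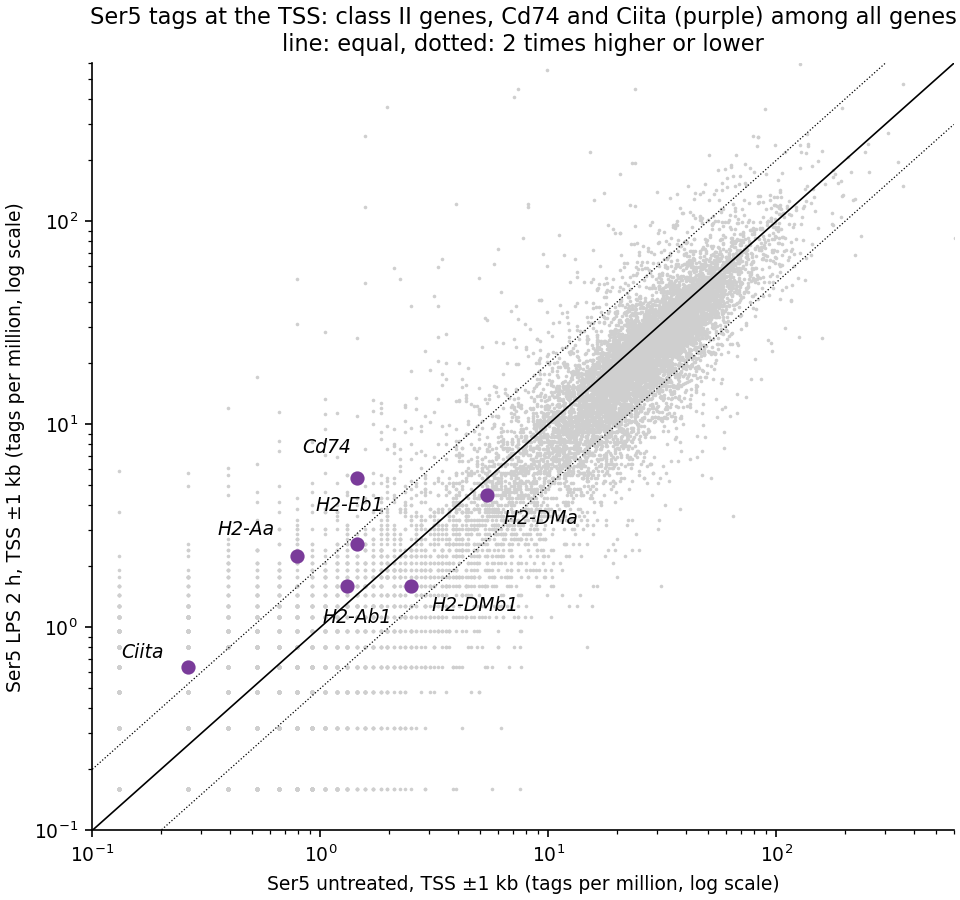
Ser5 tags within 1 kb of the TSS in TPM, untreated against LPS, on log scales, for the protein-coding genes with tags in both libraries, with the 7 genes in purple. H2-Aa, Cd74 and Ciita lie above the upper dotted line, and Ciita does so on only 2 and 4 tags.

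The invariant chain gene Cd74 had the largest ratio of these 6 genes at the TSS, while the rest of its gene body differed little. Cd74 lies at chr18:60963502-60972300 on the plus strand, outside the H2 complex. Within 1 kb of its TSS there were 11 tags in untreated Ser5, 34 after LPS and 18 in the input. The ratio to input was 0.604 in untreated cells (0.258 to 1.35) and 2.28 after LPS (1.25 to 4.28) when scaled to all tags, and 1.16 (0.493 to 2.58) and 4.69 (2.57 to 8.82) when scaled to tags outside peaks. LPS over untreated came to 3.77 (1.86 to 8.24), higher than in 98.1% of the genes compared, and 4.06 (2.01 to 8.87) when scaled to tags outside peaks. In the rest of the gene body there were 126, 112 and 73 tags, a ratio of 1.08 (0.832 to 1.41).

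A peak was called across the Cd74 start only after LPS, at chr18:60963222-60963736 with a score of 111. That stretch held 7 untreated tags, 27 after LPS and 4 in the input, a ratio of LPS to untreated of 4.70 (2.00 to 12.8). H2-Aa and Cd74 were the genes of the group with a TSS peak only after LPS, a pattern seen in 1.02% of all genes. In untreated cells the only peak of the Cd74 body lay at its other end, at chr18:60971769-60972316, with 19 untreated tags, 17 after LPS and 1 in the input. After LPS the gene also held peaks at chr18:60969418-60969657 and chr18:60971681-60972163, the latter at the place of the untreated one.

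At the end of Cd74 the tags could not be assigned to 1 gene. The last 25% of the gene's length held 53 untreated tags, 39.8% of the gene's tags (31.9 to 48.3), and 38 tags after LPS, 29.9% (22.6 to 38.4), beside 22.0% in the input (14.4 to 32.0). Tcof1, which encodes the nucleolar protein treacle and runs toward Cd74, ends 1113 bp beyond it. The gap between both ends held 35, 27 and 6 tags, a ratio of LPS to untreated of 0.940 (0.547 to 1.60), and Tcof1 itself held 574, 559 and 211 tags. The share of each gene in the tags of that gap was not tested.

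H2-Aa, the alpha chain of the I-A molecule, also held more tags at its start after LPS. Within 1 kb of the TSS there were 6 tags in untreated Ser5, 14 after LPS and 15 in the input. Scaled to all tags, the ratio to input was 0.396 in untreated cells (0.126 to 1.08) and 1.12 after LPS (0.503 to 2.50). Scaled to tags outside peaks it was 0.757 (0.241 to 2.06) and 2.32 (1.04 to 5.15), so whether the start stood above the input after LPS depended on the scaling. LPS over untreated gave 2.84 (1.03 to 9.03). The LPS list holds a peak at chr17:34424653-34424994 with a score of 67.5, across the TSS and the whole of the promoter stretch printed above, and it held 2 untreated tags, 10 after LPS and 1 in the input. On so few tags the ratio of 6.09 has an interval from 1.30 to 57.2.

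The value for H2-Aa over its whole length turned on the span that was counted. Over the annotated gene there were 27, 43 and 50 tags, a ratio of LPS to untreated of 1.94 (1.17 to 3.27). Over transcript H2-Aa-001 alone there were 8, 27 and 20 tags, a ratio of 4.11 (1.82 to 10.5). The long transcript alone contains the untreated peak of this gene, at chr17:34418283-34418464, where 8 untreated tags, 1 tag after LPS and 0 input tags were counted.

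H2-Ab1, the beta chain of I-A, had no peak in either list. Its gene body held 14 tags in untreated Ser5, 20 after LPS and 25 in the input, a ratio of LPS to untreated of 1.74 (0.836 to 3.73). Within 1 kb of its TSS the counts were 10, 10 and 20, a ratio of 1.22 (0.455 to 3.26). No difference was detectable at this depth. The ratio to input at the TSS was 0.494 in untreated cells and 0.603 after LPS when scaled to all tags, and 0.946 (0.395 to 2.12) and 1.24 (0.519 to 2.78) when scaled to tags outside peaks.

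H2-Eb1, the beta chain of I-E, had most of its untreated Ser5 tags in 1 place inside the gene. A peak at chr17:34446760-34447168, from the end of exon 2 into intron 2, had a score of 525 in untreated cells, and the LPS list holds one at chr17:34446637-34447062 with a score of 333, plus a smaller one just before it at chr17:34446338-34446598 with 68.0. The untreated peak held 69 tags in untreated Ser5, 40 after LPS and 3 in the input. Those were 69.0% of the gene's untreated tags (59.4 to 77.2), 50.0% of those after LPS (39.3 to 60.7) and 5.26% of those in the input (1.81 to 14.4). Within the peak, LPS over untreated was 0.706 (0.466 to 1.06).

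The tags of this peak were spread over 59 distinct positions in untreated cells and over both strands, 32 on the plus and 37 on the minus strand. After LPS its 40 tags lay at 32 positions, 17 on the plus and 23 on the minus strand. The median plus-strand and minus-strand 5′ ends lay 4057 and 4142 bp after the TSS in untreated cells. After LPS they lay at 4049 and 4045 bp, without that offset. Of the 69 untreated tags, 5 started within exon 2 and 64 in intron 2. The stretch of 160 bases around the middle of the tags, chr17:34446848-34447007 in mm9 on the plus strand, begins inside intron 2 and is shown because it carries the highest Ser5 signal of the group, with matches to TGCGCA, the core recognised by NRF1, in capitals.
H2-Eb1 internal peak: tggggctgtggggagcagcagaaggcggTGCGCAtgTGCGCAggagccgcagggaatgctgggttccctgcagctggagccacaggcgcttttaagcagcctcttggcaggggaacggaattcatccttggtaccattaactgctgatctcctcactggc
It holds TGCGCA 2 times, and the letters occur in the middle 160 bases of 2.67% of the 53467 untreated peaks. That share counts any match around the midpoint of each peak, whereas the H2-Eb1 stretch is centred on its tags. The measures are therefore not the same, and the share is background and not a test of the match. G and C made up 60.6% of the H2-Eb1 stretch, against a median of 53.1% over those peaks.

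Outside that peak the H2-Eb1 gene body held 31 untreated tags, 40 after LPS and 54 in the input. The ratio of LPS to untreated without the peak was 1.57 (0.959 to 2.60), where the whole gene body gave 0.975 (0.717 to 1.32). At the TSS there were 11, 16 and 19 tags, a ratio of 1.77 (0.773 to 4.22), and no peak in either list. Just beyond the peak, from chr17:34447165 to chr17:34448942, none of the 3 libraries had a tag over 1778 bp of intron 2. Only 42.4% of the 30-base stretches of that interval occur once in the reference genome, and 66.0% of the 45-base stretches, against 88.2% and 94.0% over the gene body.

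**Figure D4:**
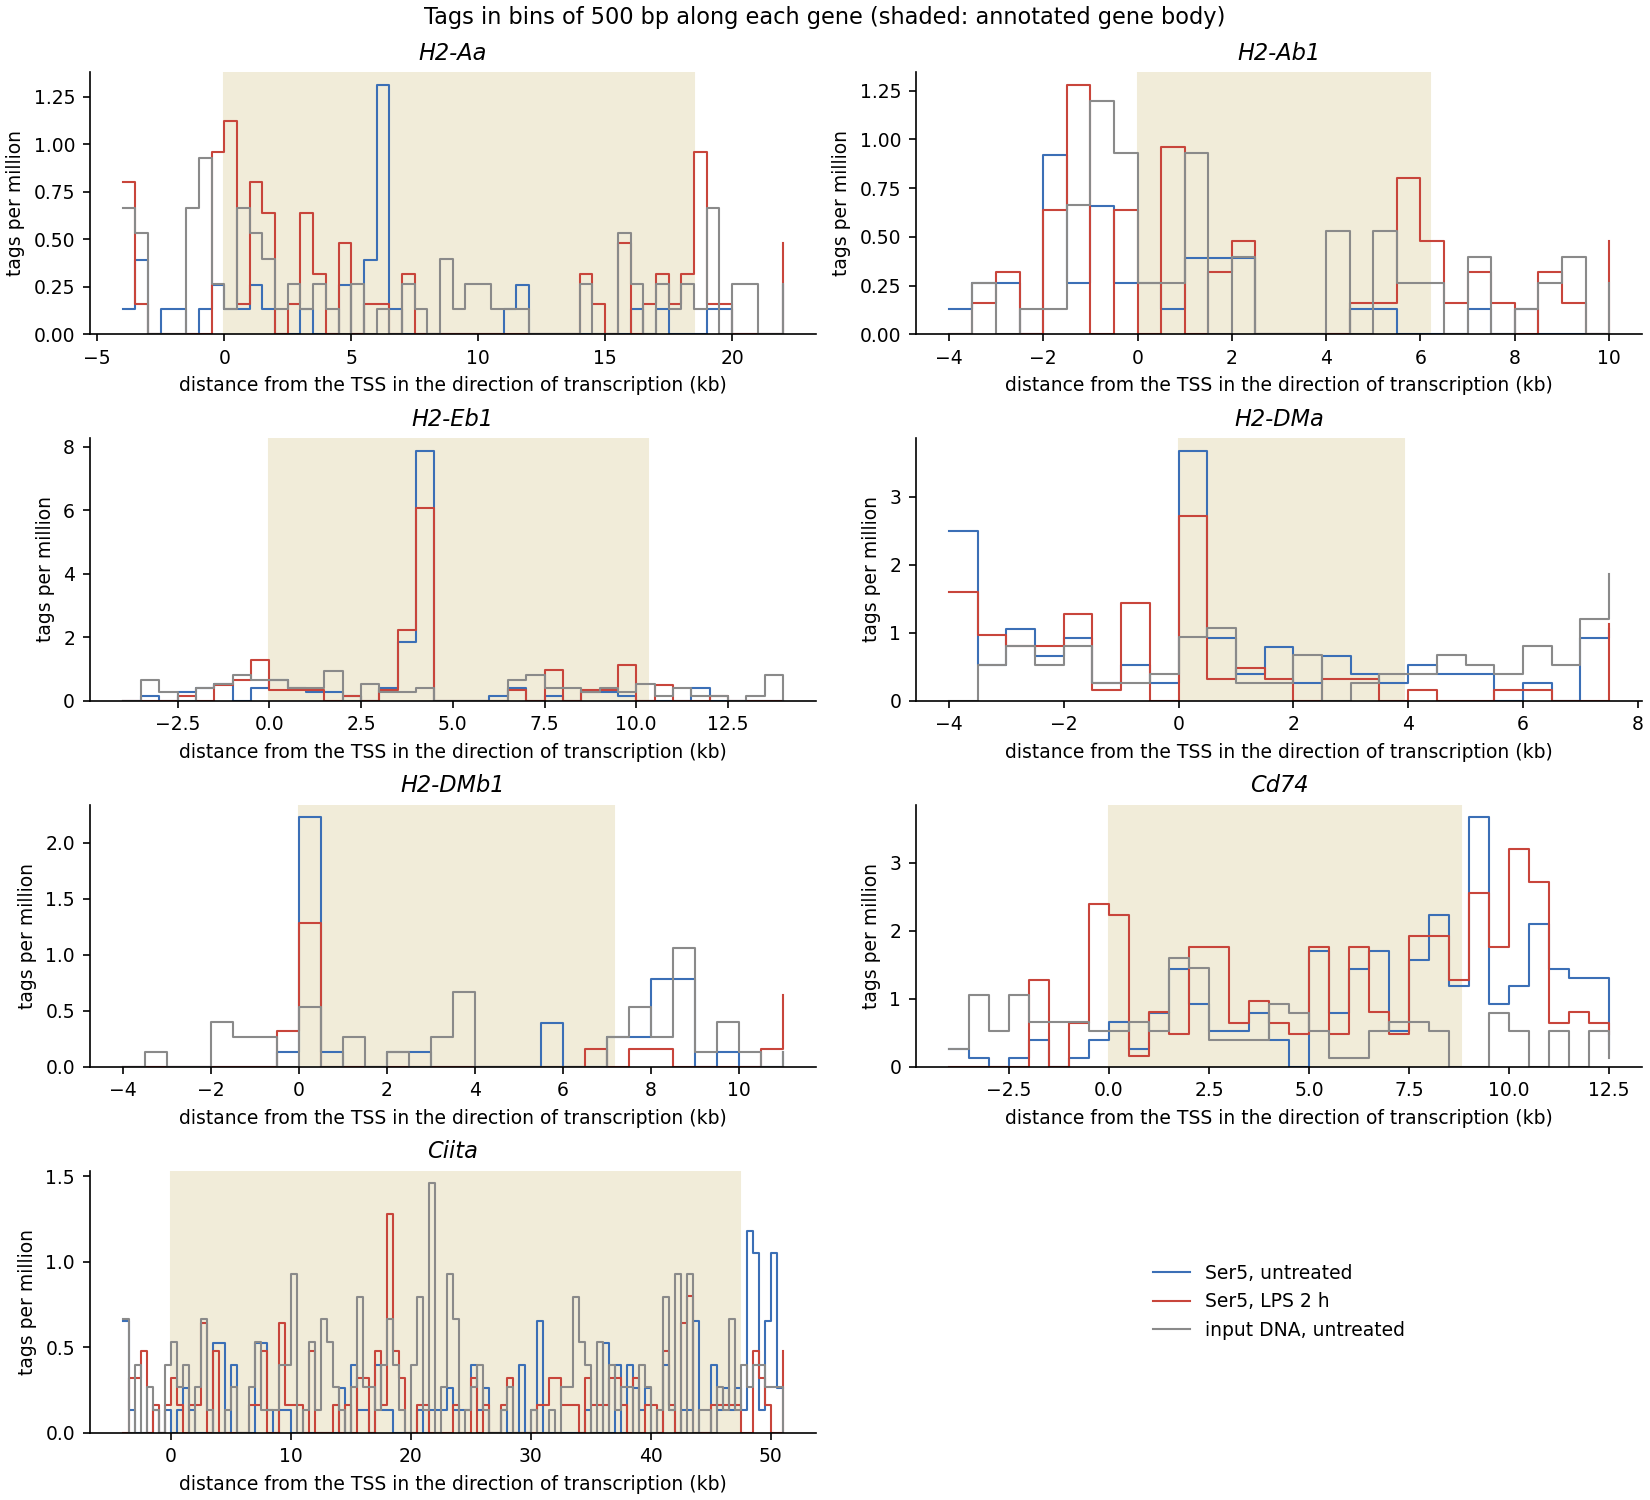
Tags in TPM in bins of 500 bp along each gene against the distance from its TSS in kb, with the annotated gene body shaded, for untreated Ser5, Ser5 after LPS and input. H2-Eb1 reaches 7.88 in untreated cells and 6.08 after LPS in the bin that starts 4000 bp after its TSS, and H2-DMa and H2-DMb1 are highest in the first bin of the gene.

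The exchanger genes had a larger share of their Ser5 tags in the first kb than the chain genes. H2-DMa held 41 tags within 1 kb of its TSS in untreated Ser5, 28 after LPS and 20 in the input. Its promoter had a peak in both lists, at chr17:34272174-34272708 with a score of 86.3 in untreated cells and at chr17:34272241-34272615 with 52.0 after LPS. The untreated peak held 32, 17 and 6 tags. Within 10 kb upstream of H2-DMa, on the side of Brd2, the untreated list has 5 more peaks. Their midpoints lie from -8361 to -4699 bp relative to the H2-DMa TSS. The LPS list has 3 in that stretch, from -7617 to -6097 bp. None of these upstream peaks overlaps a protein-coding gene. The first kb, 25.5% of its length, held 63.6% of the untreated tags of the gene (50.4 to 75.1) and 67.9% of those after LPS (49.3 to 82.1). It also held 51.7% of the input tags (34.4 to 68.6), so the Ser5 shares were not set apart from the input. At the TSS this gave 0.832 for LPS over untreated (0.496 to 1.38), and over the gene body, with 55, 28 and 29 tags, 0.620 (0.379 to 0.995).

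H2-DMb1 had a promoter peak only in the untreated list, at chr17:34289955-34290205 with a score higher than that of 18.3% of the peaks in the list. It held 18 untreated tags, 9 after LPS and 4 in the input. A TSS peak only in untreated cells was found in 3.12% of all genes. Over the gene body there were 24, 9 and 14 tags, a ratio of LPS to untreated of 0.457 (0.187 to 1.02), and at the TSS 19, 10 and 6 tags, a ratio of 0.641 (0.266 to 1.45). The first kb held 18 of its 24 untreated tags, 8 of the 9 after LPS and 4 of the 14 in the input.

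The tag lengths differ between the libraries, 45 bases in untreated Ser5, 30 after LPS and 36 in the input, and this touches H2-DMb1 most. In its gene body 76.3% of 45-base stretches but 65.8% of 30-base stretches occur once in the genome. Counted per unique position, a measure chosen after seeing the data, the ratio for H2-DMb1 was 0.530 and no longer reached 2 times lower. It also missed that size with 1 tag per position and strand, at 0.570. Without the first kb the ratio was 0.203, but on 6 and 1 tags, too few to be counted. For H2-Aa the same measure per unique position gave 2.06 over the gene body.

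**Figure D5:**
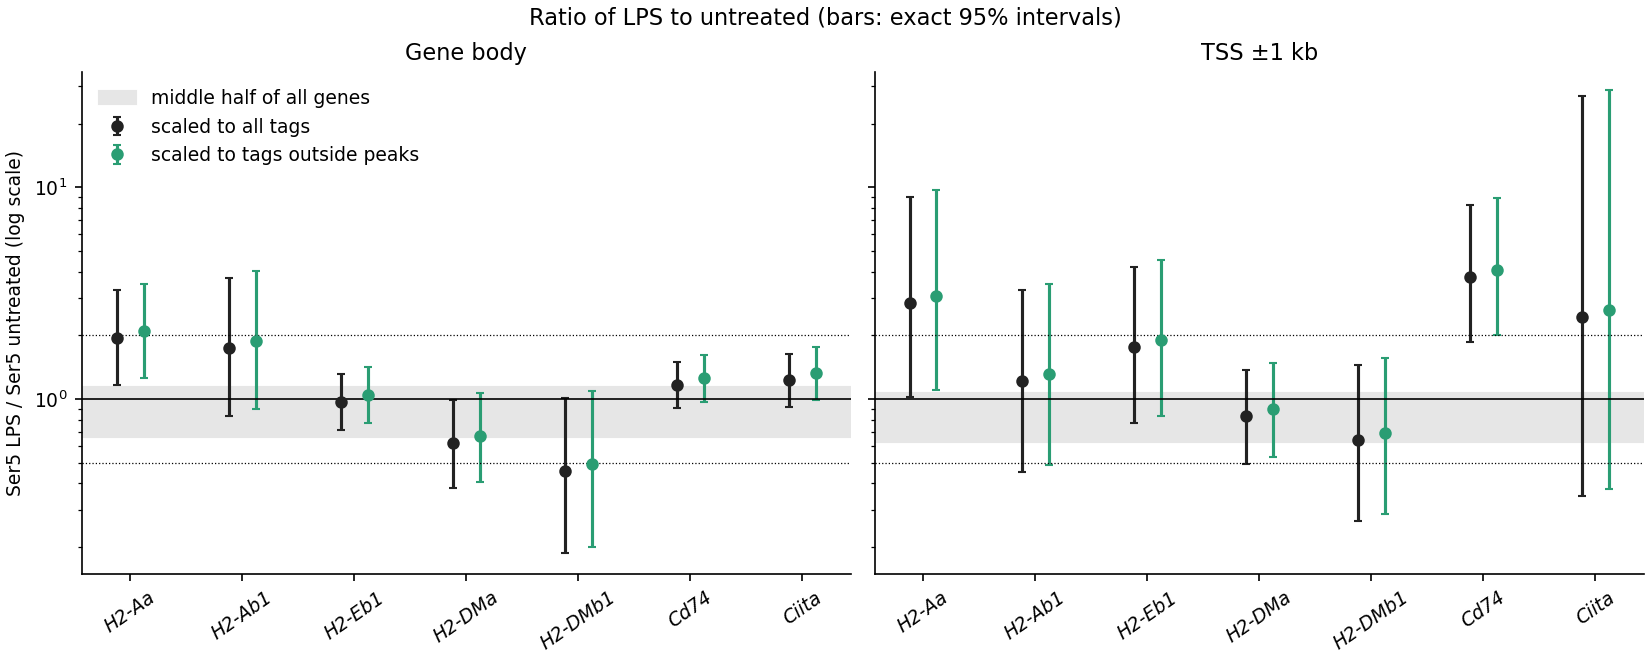
Ratio of LPS to untreated over the gene body (left) and within 1 kb of the TSS (right), on a log scale, scaled to all tags and to tags outside peaks, with exact intervals. The gray band is the interquartile range of all genes compared, 0.665 to 1.14 over gene bodies, and Cd74 at the TSS lies at 3.77.

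Ciita, at chr16:10480237-10527657 on the plus strand, had no Ser5 peak in either list, and within 1 kb of its start sites the Ser5 libraries held fewer tags than the input before scaling. The annotation gives starts at 10480237, at 10488271 with others up to 10488392, and at 10489876, and the windows of the last 2 groups overlap. Within 1 kb of the first there were 2 tags in untreated Ser5, 4 after LPS and 9 in the input. The second held 5, 4 and 7 tags, and the third 2, 7 and 13. Within 500 bp the counts were 1, 3 and 7 at the first, 5, 3 and 2 at the second and 2, 5 and 6 at the third. In that narrower window the second start thus held more Ser5 than input tags, on very few tags. Scaled to tags outside peaks, the ratio of LPS to input was 1.10 at the first (0.248 to 3.95), 1.42 at the second (0.304 to 5.58) and 1.34 at the third (0.452 to 3.60). At the third start LPS over untreated was 4.27 with an interval from 0.812 to 42.1, so no difference was detectable at this depth.

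The 250 bases before the third start are shown because interferon gamma is known to act on the start that responds to it through a GAS element, an E box and an IRF element, here searched as TTCNNNGAA, CACGTG and GAAANNGAA. The annotation does not name the start.
Ciita, the third start, chr16:10489626-10489875, plus strand: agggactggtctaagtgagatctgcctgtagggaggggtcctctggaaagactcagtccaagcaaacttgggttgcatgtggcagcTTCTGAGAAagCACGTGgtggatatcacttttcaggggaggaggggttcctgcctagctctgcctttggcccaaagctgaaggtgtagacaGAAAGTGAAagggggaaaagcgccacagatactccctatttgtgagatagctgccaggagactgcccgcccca
The GAS letters start 164 bases before the TSS, the E box 153 and the IRF letters 73, and they were found in 6.84%, 6.53% and 7.57% of the promoters of all genes. None of these 3 was found in the 250 bases before the first or second start.

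Over the 47421 bp of Ciita there were 99 untreated tags, 100 after LPS and 199 in the input. Spread evenly over the genome outside peaks, the tags of each library would give 69.5, 53.0 and 131 here, so the gene held 1.43 times that number in untreated Ser5 (1.16 to 1.74), 1.89 times after LPS (1.54 to 2.30) and 1.51 times in the input (1.31 to 1.74). LPS over untreated was 1.23 (0.923 to 1.64). In density over the gene body in both Ser5 libraries, the genes nearest to Ciita were Gm17345, Adrbk2, Foxr1, Olfr371 and Foxd4. Their distances ran from 0.0141 to 0.0344 on the log2 scale. In that order they held 25, 220, 16, 2 and 5 untreated tags and 25, 218, 16, 2 and 5 after LPS. All of these matches but that of Adrbk2 therefore rest on few tags. Those nearest to Cd74 were Epc1, Ubap1, Stard7, Letm2 and Zwint, each within 0.037.

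The 7 known regulators of Ciita counted here all had a TSS peak in both lists. Of their gene bodies, 3 were 2-fold or more higher after LPS and 1 was lower by that much, with a median ratio of 1.44. Over all genes compared, 5.83% were higher and 11.2% lower by that much. Irf1, which encodes a factor of the interferon response, held 525 tags in untreated Ser5, 2175 after LPS and 67 in the input, a ratio of 5.05. Socs1, which encodes an inhibitor of cytokine signalling, held 156, 525 and 13 tags (4.10), and Prdm1, a repressor of Ciita in plasma cells, held 159, 544 and 491 (4.17). Irf4, a factor of lymphocytes and of some myeloid cells, held 46, 40 and 81 tags (1.06). Scaled to all tags, untreated Irf4 and Prdm1 lay below the input over the gene body, at 0.562 and 0.320 times its density. Scaled to tags outside peaks, these values were 1.07 and 0.613. Irf8, a factor of the macrophage lineage, was lower, with 1428, 481 and 144 tags (0.411).

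The factors that bind the class II promoters were counted in the same way. None of the 7 genes for RFX, NF-Y and CREB subunits was at least 2 times higher or lower over the gene body, and their median ratio was 0.841. Of all genes compared, 5.83% were higher and 11.2% lower by that much. In 7 genes a count of 0 is not far from those shares. Rfx5, the DNA-binding subunit of RFX, held 143 untreated tags, 141 after LPS and 26 in the input, a ratio of 1.20. Rfxank held 386, 164 and 53 tags, a ratio of 0.518. A TSS peak was called for 6 of the 7 in both lists, Nfyc being the exception.

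Among 7 genes for the processing and turnover of class II and its peptides, 1 was at least 2 times higher and 2 were at least 2 times lower. Of all genes compared, 5.83% were higher and 11.2% lower by that much. In a list of 7 genes such counts are too small to set apart from those shares. Sppl2a, annotated as 2010106G01Rik, encodes the protease that clears the last fragment of the invariant chain and held 482 tags in untreated Ser5, 1022 after LPS and 214 in the input, a ratio of 2.58. Ifi30, a thiol reductase of the endosome, held 342, 99 and 40 tags (0.353), and Lgmn, an endosomal protease, held 624, 202 and 230 (0.395). Ctss, the protease that trims the invariant chain, held 1085, 528 and 224 tags (0.593).

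The other class II loci held few tags too. None of the 4 gene bodies was at least 2 times higher or lower, where 5.83% and 11.2% of all genes compared were. H2-Oa encodes a chain of the inhibitor of the exchanger. Its gene body held 34 tags in untreated Ser5, 25 after LPS and 24 in the input (0.896, 0.51 to 1.55). At its TSS these counts were 6, 17 and 13, a higher value of 3.45 (1.30 to 10.7) on few tags. The TSS windows of H2-Ob and H2-DMb2 went the other way, at 0.530 (0.225 to 1.16) and 0.926 (0.482 to 1.75). H2-Eb2 had only 2 untreated tags and 3 after LPS there. H2-DMb2, a close copy of H2-DMb1, held 19, 14 and 18 tags over its gene body, and reads shared by both copies were not placed. H2-Ob, the other chain of that inhibitor, held 62, 54 and 72 tags and H2-Eb2 13, 16 and 70, and these are the nearest neighbours of H2-Aa, H2-Ab1 and H2-Eb1 outside the group. The nearest neighbours that are no class II genes held more Ser5 tags than input tags in both conditions. Brd2, upstream of H2-DMa, held 3003, 3021 and 88 tags, and Psmb9, beside H2-DMb1, held 243, 552 and 36, a ratio of 2.77. In the same region Tap1, a subunit of the peptide transporter of the class I pathway, held 307, 951 and 56 tags, a ratio of 3.78, and Btnl2, a butyrophilin-like gene, held 35, 33 and 68 (1.15), both chosen after their values were seen.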

How the data were processed

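The aligned tags and peak lists of the Ser5 and input libraries of BMDM were used as deposited. According to the methods, the authors shortened the reads, mapped them to mm9 using Bowtie (reads with 1 place only, 2 mismatches or fewer), and ran MACS on each Ser5 library with the input as control and p set to 1e-05. The versions of Bowtie and MACS are not given in the sources used here. In the deposited tag files each line is 1 tag with its place and strand, duplicates included, and the deposited peak lists give a score for each peak, here used only to describe peaks within a list. The methods state a length of 30 bases for untreated Ser5 and 45 for LPS, whereas the files hold 45-base tags for untreated Ser5 and 30-base tags for LPS, and 36 for the input.

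Tags on chromosomes 1 to 19 and X were counted by their 5′ end with numpy 2.4.6 and pandas 2.3.3, over GENCODE M1 genes. Intervals came from scipy 1.17.1: exact Poisson intervals for counts, Clopper-Pearson limits turned into ratios for pairs of counts, and Wilson intervals for shares, all at 95%. They cover counting error only, and PCR copies are not independent molecules. Counts of 0 were left as 0 in the levels, and 0 tags were set to 0.5 for the rule of size. A peak was assigned to a region it overlapped by at least 1 bp. Uniqueness is the share of positions whose stretch of the tag length occurs once in mm9 on both strands without mismatches, so it is an upper limit for the authors' rule. Counting and intervals were tested on simulated data.

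The genes, gene lists and measures were chosen with earlier results of these data known. All 7 genes are named. The listed genes, the 5 nearest to Cd74 and to Ciita in log2 density over both Ser5 libraries among genes with tags in both, and Ccl5 as a check were eligible to be named, as were peaks within 10 kb of a gene of the group. The lists were other class II loci, promoter-binding factors, regulators of Ciita, processing and turnover, nearest neighbours, and markers of macrophages, dendritic cells, B cells, T cells and neutrophils. In the neighbour list 1 of 9 gene bodies was at least 2 times higher and 0 were lower, where 5.83% and 11.2% of all genes compared were. In the list of regulators of Ciita 1 gene is not reported here and was left out of the counts. Spi1 and Sppl2a were found under older symbols through RefSeq synonyms. Alternatives covered duplicates, tag position, scaling, input subtraction, minimum tags, windows and peak thresholds.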

Additional observations from a re-analysis of the deposited data

How the results depend on the processing

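No paired analysis was possible because each condition has 1 library and no test was made, and leaving out a replicate was not possible for the same reason. Over 56 results and 244 alternative values, 212 stayed within the counting interval of the reported value or within 1.5 times of a reported count, and no result that met the rule of size changed direction. Some smaller ratios did cross 1. With scaling to tags outside peaks the gene body ratio to input rose from 0.534 to 1.02 for untreated H2-Aa. For Ciita after LPS it rose from 0.606 to 1.25. LPS over untreated for H2-Eb1 rose from 0.975 to 1.57 without its internal peak. The number of gene bodies at least 2 times higher after LPS was 0 as reported, 1 with 1 tag per position and strand, 1 with scaling to tags outside peaks, 1 with transcript H2-Aa-001, 1 per unique position and 2 with the input subtracted. In the first 4 of these the gene was H2-Aa. With the input subtracted the genes were H2-Aa and H2-Ab1, whose untreated tags hardly exceeded the scaled input. The number at least 2 times lower was 1 as reported, H2-DMb1. It was 0 with 1 tag per position and strand and per unique position, where the ratio of H2-DMb1 missed that size, and 0 with at least 50 tags and without the first kb, where H2-DMb1 held too few tags to be counted. Subtracting the input moved the ratio of LPS to untreated for the summed tags from 1.10 to 1.29 over gene bodies and from 1.41 to 2.05 at the TSS. Ciita at the gene body and H2-Aa, H2-Ab1 and Ciita at the TSS then had no ratio, since a library fell to 0 or below or held too few tags. Scaling to tags outside peaks moved the ratio of summed gene body tags to input from 0.980 to 1.88 in untreated Ser5 and from 1.08 to 2.22 after LPS. Genes with a peak in the gene body numbered 5 in the untreated and 4 in the LPS list, and 1 and 2 with a score of at least 100. The measures per unique position, over transcript H2-Aa-001 and without the internal H2-Eb1 peak were chosen after seeing the data. The counts at the TSS of 2 to 41 tags limit what can be seen there.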
